A study of Mus musculus with 80 samples.

Results

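The genes described here encode the subunits of the proteasome in AgRP neurons of the mouse arcuate hypothalamus. They are the rows whose symbol is Psma, Psmb, Psmc, Psmd or Psme followed by a number, which gave 43 of the 23337 genes measured. By their place in the particle they were divided into 8 alpha-ring genes (Psma1 to Psma8), 7 constitutive beta genes (Psmb1 to Psmb7), 4 inducible or tissue-specific beta genes (Psmb8 to Psmb11), 6 ATPase genes (Psmc1 to Psmc6), 14 non-ATPase genes of the lid and base (Psmd1 to Psmd14) and 4 activator genes (Psme1 to Psme4).

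The proteasome is the large protease that breaks down proteins marked with ubiquitin. Its 20S core is a barrel of alpha and beta rings, and the beta subunits Psmb5, Psmb6 and Psmb7 carry the cutting sites. Psmb8, Psmb9 and Psmb10 replace them in the immunoproteasome, which interferon induces. The 19S particle caps the core: its Psmc ATPases unfold the substrate and pull it in, and its Psmd subunits recognise and remove ubiquitin. The activators Psme1 and Psme2 (together PA28), Psme3 (PA28 gamma, a nuclear protein) and Psme4 (PA200) open the core without ubiquitin. AgRP neurons drive feeding, are active during fasting and are inhibited by leptin, and neurons rely on proteasomal turnover to keep damaged and short-lived proteins low.

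RNA was sequenced from 80 libraries in 20 groups, all made with the SMART-seq v4 and Nextera XT kits. In the first set, NPY::hrGFP cells were sorted by fluorescence from dissociated arcuate slices. These mice had food ad libitum (6 libraries at ZT2, 3 at ZT14), an effective 24-hr fast (7 and 8 libraries) or that fast followed by a 1-hr refeed (5 and 4 libraries). ZT is the time in hours after lights on. In the second set, ribosome-bound RNA was immunoprecipitated from AGRP-Cre;RiboTag mice fed ad libitum (3 and 4 libraries) or fasted (5 and 5). In the third set, WT;BMAL1fx controls and AGRP-Cre;BMAL1fx knockouts received PBS or leptin, with 3 libraries in each group except 4 for control PBS at ZT2. The last set held 2 control and 3 knockout libraries of the same genotypes at ZT5, with no treatment given. By its name the Cre is driven by AGRP and the reporter by NPY, so each marks the cells that use that promoter, and the labels call all samples AgRP+ neurons of the arcuate nucleus. How the cells of the BMAL1 sets were collected is not given in the sources used here. No age is given, and nothing in the labels says that the libraries of a group came from separate mice, so the p-values measure the spread between libraries, which may be technical.

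Between 5.93 M and 34.0 M reads were recovered in 79 of the 80 libraries, with a median of 14.3 M. Agrp was at 32490 normalised counts or more in every sorted ad libitum, fasted and refed library, and it lay between 2910 and 1489000 in RiboTag libraries. Arntl, which encodes BMAL1, separated the genotypes with leptin at ZT2 alone, at 258.7 to 435.8 in knockouts and 681.6 to 1211 in controls. With PBS at ZT2 it was at 245.5 to 526.3 and 291.2 to 1125 and at ZT5 at 470.2 to 540.5 and 390.4 to 750.3, and the genotypes also overlapped at ZT14 with PBS and with leptin. Hsd11b2 lay between 1050 and 4570 in 31 libraries labelled AGRP-Cre and between 0 and 23.3 in 47 without Cre. It went against the label in the library labelled ZT5 control replicate 1 (4630) and in that labelled ZT5 knockout replicate 3 (11.2). Correlation with the own group was under 0.8 in sorted fasted ZT14 replicate 3 and in replicate 3 of RiboTag fasted ZT14 and ZT2. RiboTag fasted ZT2 replicates 3 and 5 had summed counts over 1.5 times the median of all libraries. Values of sorted ad libitum ZT2 replicate 4 were not whole reads divided by a size factor, though its correlation was 0.93. These and the ZT5 libraries whose Hsd11b2 went against the label are called the libraries that stood apart.

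Promoters were read for the motifs of factors known to control subunit genes. NRF1 (Nfe2l1) and NRF2 (Nfe2l2) drive proteasome genes through antioxidant response elements, BMAL1 with CLOCK binds E-boxes, NF-Y binds the CCAAT box, and interferon acts on Psmb8, Psmb9, Psme1 and Psme2 through interferon-responsive sites. RefSeq promoters (GRCm38.p6, the 250 bases before the start) were found for 36 of the 43 genes, 39 promoters in all. Of these windows 8 held no annotated exon and 26 overlapped one in part. Those of Psma4, Psmb8, Psmb9, Psmb11 and Psmd13 lay wholly within annotated exons of the gene or a neighbour. The 5 sequences printed belong to genes to which the expression results return: Psmb6, the highest per kilobase, Psmd12, Psmd2 and Psme3, which were higher after fasting, and Psmd9, which holds 3 of the motifs. They are on the plus strand at chr11:70525107-70525356 (Psmb6), chr11:107479278-107479483 (Psmd12, the 206 bases outside any exon), chr16:20651402-20651651 (Psmd2), chr5:123227940-123228189 (Psmd9) and chr11:101315963-101316212 (Psme3). Capitals mark motif matches on either strand.
Psmb6: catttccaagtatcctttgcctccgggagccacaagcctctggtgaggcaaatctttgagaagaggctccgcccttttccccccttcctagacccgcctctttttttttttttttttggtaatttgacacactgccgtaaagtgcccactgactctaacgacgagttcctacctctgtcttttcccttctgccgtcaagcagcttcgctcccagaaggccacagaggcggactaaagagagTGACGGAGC
Psmd12: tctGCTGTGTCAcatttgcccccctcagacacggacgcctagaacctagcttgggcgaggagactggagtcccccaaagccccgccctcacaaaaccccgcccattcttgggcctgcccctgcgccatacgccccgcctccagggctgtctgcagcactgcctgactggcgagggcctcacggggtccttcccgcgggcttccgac
Psmd2: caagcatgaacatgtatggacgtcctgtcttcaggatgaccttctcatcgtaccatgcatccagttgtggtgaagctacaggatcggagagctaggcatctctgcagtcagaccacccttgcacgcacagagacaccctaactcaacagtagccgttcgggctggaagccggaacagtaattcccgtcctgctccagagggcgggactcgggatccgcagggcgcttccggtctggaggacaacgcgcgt
Psmd9: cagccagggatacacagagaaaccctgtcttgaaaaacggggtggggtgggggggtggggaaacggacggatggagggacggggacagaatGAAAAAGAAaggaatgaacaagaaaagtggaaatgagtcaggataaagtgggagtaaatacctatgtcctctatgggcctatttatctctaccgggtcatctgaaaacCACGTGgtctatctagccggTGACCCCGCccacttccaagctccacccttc
Psme3: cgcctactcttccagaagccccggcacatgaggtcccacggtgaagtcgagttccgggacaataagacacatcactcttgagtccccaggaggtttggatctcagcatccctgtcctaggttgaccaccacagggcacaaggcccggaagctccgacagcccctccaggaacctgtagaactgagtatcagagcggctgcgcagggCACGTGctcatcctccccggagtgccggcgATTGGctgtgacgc
The Psmb6 match is an antioxidant response element core starting 9 bases before the start, and that of Psmd12 begins 247 bases before it. Psmd9 holds that core, an E-box and an interferon-stimulated response element core, Psme3 holds an E-box and a CCAAT box, and the Psmd2 window holds no match to these letters.

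Across the 39 promoters, the response element core TGACNNNGC occurred in 5 (12.8%), those of Psmb5, Psmb6, Psmc6, Psmd9 and Psmd12, against 10.2% of 32851 promoters of the same length. The E-box CACGTG occurred in 4 (10.3%, Psma4, Psmb10, Psmd9 and Psme3) against 6.0%, and CCAAT in 14 (35.9%) against 33.8%. The interferon-gamma activated site TTCNNNGAA was found in Psmb8 alone (2.6% against 7.0%), in a window that is exonic throughout and lies inside the gene model,, and the interferon-stimulated core GAAANNGAA in Psmb3, Psmd4 and Psmd9 (7.7% against 7.1%). Both strands were searched and no matches overlapped. Subunit promoters had a median of 15 CpG and 57.6% GC, where all promoters had 6 and 52.4%. Every one of these shares is a description of letters in a short window, not of binding.

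In sorted cells from ad libitum mice at ZT2, levels per kilobase of transcript ran over several orders. Psmb6, a catalytic core subunit, was highest at 11250 ± 2560 normalised counts per kb (SD, n = 6), followed by Psma6 at 10180 ± 3177 and Psmb2 at 8876 ± 2236. These 3 neighbours did not differ beyond their spread. The class medians were 3090 per kb for the alpha ring, 3881 for constitutive beta, 3036 for ATPases, 1233 for non-ATPases and 2077 for activators.

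The catalytic genes and their inducible counterparts were far apart in level. Psmb5, Psmb6 and Psmb7 stood at 2006, 11250 and 2328 per kb, where Psmb8 stood at 384.4 ± 65.6, Psmb9 at 35.36 ± 9.799 and Psmb10 at 813.3 ± 143.3. The activators split into an abundant pair, Psme1 at 5207 ± 1589 and Psme2 at 4006 ± 982.6, and a scarce pair, Psme3 at 147.8 ± 35.91 and Psme4 at 84.01 ± 21.2. The tissue-specific genes were near 0: Psma8, the alpha subunit of the testis, was at 0.7215 and Psmb11, the beta subunit of the thymus, at 0.2471 per kb. The non-ATPase genes ran from Psmd14, the deubiquitinating subunit, at 4064 ± 742.4 down to Psmd9 at 351.7 ± 67.3 and Psmd5 at 285.4 ± 66.76, both of which encode assembly chaperones of the 19S base rather than subunits of the finished particle.

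**Figure D1:**
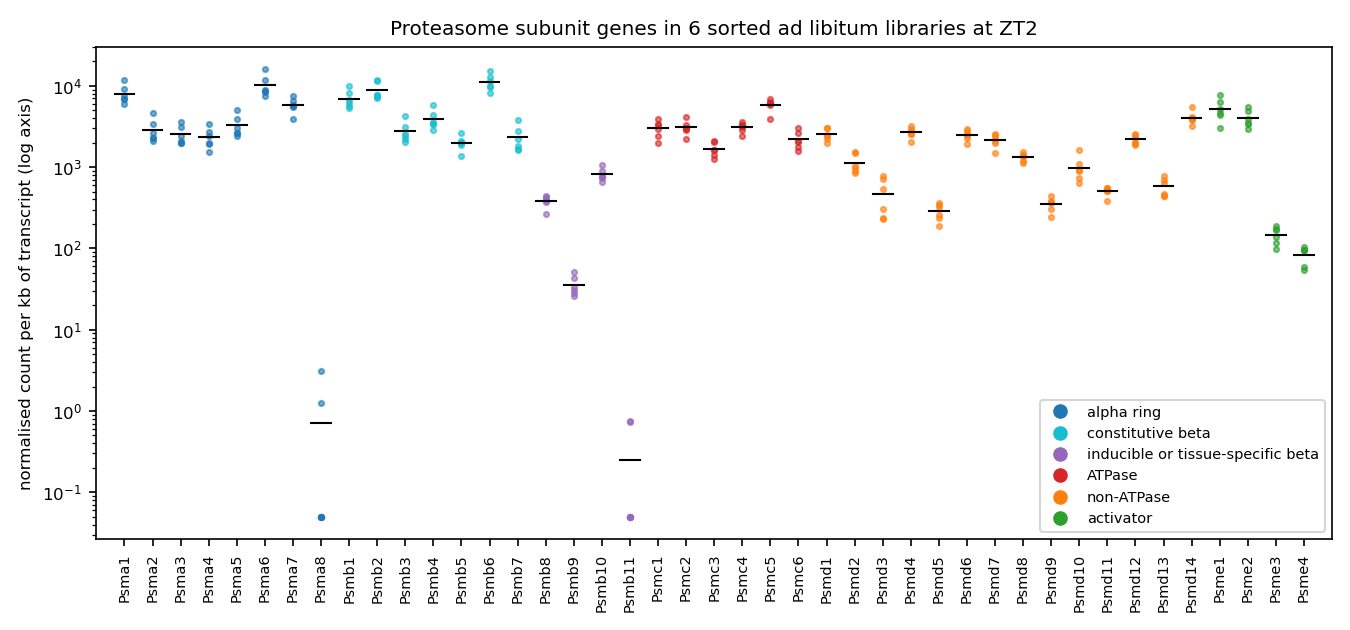
Level of each of the 43 genes per kilobase of transcript (log axis) in the 6 sorted ad libitum libraries at ZT2: points are libraries, lines are means, colours are classes, and values of 0 are drawn at 0.05. Psmb6 is highest at a mean of 11250, Psmb9 lies at 35.36, and Psma8 and Psmb11 lie under 1.

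The question put to the fasted libraries was whether an effective 24-hr fast changed these genes. At ZT2, 19 of the 41 genes tested were higher in fasted than in ad libitum sorted cells and 1 was lower, by limma on log2(value + 1) at an adjusted p under 0.05. Of all 14931 genes tested, 18.3% were higher and 19.2% lower. The median log2 difference of the subunit genes was 0.46, that of all genes -0.02. Most of the genes that rose belong to the 19S classes: 11 of 14 non-ATPase genes and 3 of 6 ATPase genes were higher (14 of 20, median 0.81), against 4 of 17 core genes (median 0.35). Without the assembly chaperones Psmd5 and Psmd9, 12 of 18 were higher (median 0.82). Psmd10, also an assembly chaperone, stayed among these 18 and was not called. The difference between the classes was not tested. In bulk RNA, a change in the kinds of cells sampled and a change within AgRP cells cannot be told apart.

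Psmd12, a scaffold subunit of the lid (chr11:107479484-107504362), read 4674, 4919, 3588, 4310, 3762 and 3818 normalised counts in the ad libitum libraries. In the 7 fasted libraries it ran from 6942 to 12230 with a median of 8880. Every fasted library lay above every ad libitum library, and the log2 difference was 1.11 ± 0.17 (SE, adjusted p = 5.37e-06). Psmd3, another lid subunit (chr11:98682554-98695979), rose most, from 1002 ± 521.6 to 2779 ± 741.2, a difference of 1.60 ± 0.28 (adjusted p = 2.5e-05). Its ad libitum libraries formed 2 sets, at 1658, 1538 and 1160 and at 649.2, 498.5 and 511.4, and all 7 fasted libraries (1690 to 3758) lay above both. Psmd2, the large base subunit that docks ubiquitin shuttles, went from 3349 ± 880.9 to 7036 ± 2120 (1.05 ± 0.19, adjusted p = 4.4e-05), with 6 of 7 fasted libraries above all ad libitum ones. The others that rose were Psmd13 (0.99), Psmd6 (0.95), Psmd4, a ubiquitin receptor (0.86), Psmd5 (0.82), Psmd8 (0.79), Psmd7 (0.72), Psmd9 (0.52) and Psmd1 (0.45). Psmd10, Psmd11 and the deubiquitinase Psmd14 did not pass, at -0.12, 0.27 and 0.42.

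Among the ATPases, which form the ring that threads substrates into the core, Psmc3 (chr2:91054009-91066369) read 3357, 3403, 2341, 2644, 2655 and 2053 in ad libitum libraries. Fasted libraries ran from 3903 to 9440 with a median of 5964, above all of those, and the difference was 1.13 ± 0.21 (adjusted p = 4.81e-05). Psmc1 also rose, with ad libitum values of 3129 to 6141 and fasted values of 6990 to 14290 (1.13 ± 0.22, adjusted p = 9.24e-05), and so did Psmc4 (4138 ± 549.6 to 8160 ± 1831, 0.96 ± 0.20). Psmc2, Psmc5 and Psmc6 did not pass, at 0.46, 0.46 and -0.03.

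In the core, 4 of the 17 genes tested rose. Psmb3, a structural beta subunit (chr11:97703399-97713500), read 1564, 1838, 1976, 3241, 2369 and 1685 in ad libitum libraries and 2738 to 6021 (median 4245) in fasted ones. Fasted replicate 7 fell within the ad libitum range and the other 6 lay above it, for a difference of 1.09 ± 0.22 (adjusted p = 0.000202). Psmb4 rose by 0.62, the inducible Psmb8 by 0.60 (625.8 ± 106.8 to 976.4 ± 298.7, adjusted p = 0.0163) and Psma7, the alpha subunit, by 0.57 (6030 ± 1213 to 8991 ± 2075, adjusted p = 0.0265). The remaining 6 alpha genes tested ran from -0.15 for Psma6 to 0.35 for Psma4: Psma2 was at 6148 to 13460 in ad libitum and 6883 to 11360 in fasted libraries, which overlap throughout. Psmb6, the highest gene per kilobase, was at 8975 ± 2043 and 12790 ± 3711 (0.49 ± 0.23, adjusted p = 0.0905). Psmb9 had a value of 0 in 1 fasted library and 150.7 in another, and its difference of -1.22 ± 0.75 did not pass.

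The activators went in opposite directions. Psme3 (chr11:101316213-101323537) read 507.7, 443.2, 311.9, 369.3, 261.4 and 468.1 in ad libitum libraries and 603.9 to 1563 (median 848.1) in fasted ones. The groups did not overlap, and the difference was 1.25 ± 0.22 (adjusted p = 4.02e-05). Psme4 (chr11:30771726-30880361) read 388.3, 351.8, 670.2, 625.5, 613.9 and 622.1 in ad libitum libraries and 175.5 to 385.6 (median 267.6) in fasted ones. It fell by 1.00 ± 0.22 (adjusted p = 0.000601), with 6 of 7 fasted libraries under all ad libitum ones. Psme4 has the longest transcript of the set, 6491 bases, and with a correction for transcript length its difference was -0.055 and the call was lost. Psme1 and Psme2 were at 3702 and 3517 in ad libitum and 3558 and 3631 in fasted libraries (-0.04 and 0.03).

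Genes outside the set also separated the fasted libraries. Cebpb was at 42.5 to 1570 in the 25 fasted libraries, 433 to 630 in the 5 ZT5 libraries and 0 to 17.1 in the other 50, and Alyref at 545 to 2760, 1270 to 2170 and 12.3 to 81.8. Rn45s, the ribosomal RNA precursor, was at 1730 to 148000 in fasted, 1580 to 4010 in ZT5 and 50800 to 963000 in the other libraries. The 9 refed libraries, which had the same fast, were without this profile (Cebpb at 0.935 to 11.3), and the ZT5 libraries held it with no fast in their labels. In each fasting comparison every fasted library held high Cebpb and Alyref and no ad libitum library did, so the fast and the profile cannot be told apart there. Whether the profile marks a separate collection or library preparation was not tested. In sorted ZT2 libraries the summed level of 7 astrocyte markers was 16.6 to 431 in ad libitum and 204 to 10300 in fasted mice, with 3 of 7 higher by test and none of the 7 at 0 throughout. That of 8 microglia markers was 4.23 to 72.9 and 80.9 to 1840 (1 of 4 tested higher), and that of 5 POMC markers 1720 to 2920 and 1980 to 43000 (2 higher, 2 lower). The part of these markers in the subunit differences was not tested. Without the libraries that stood apart, 18 subunit genes were higher and 1 lower.

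**Figure D2:**
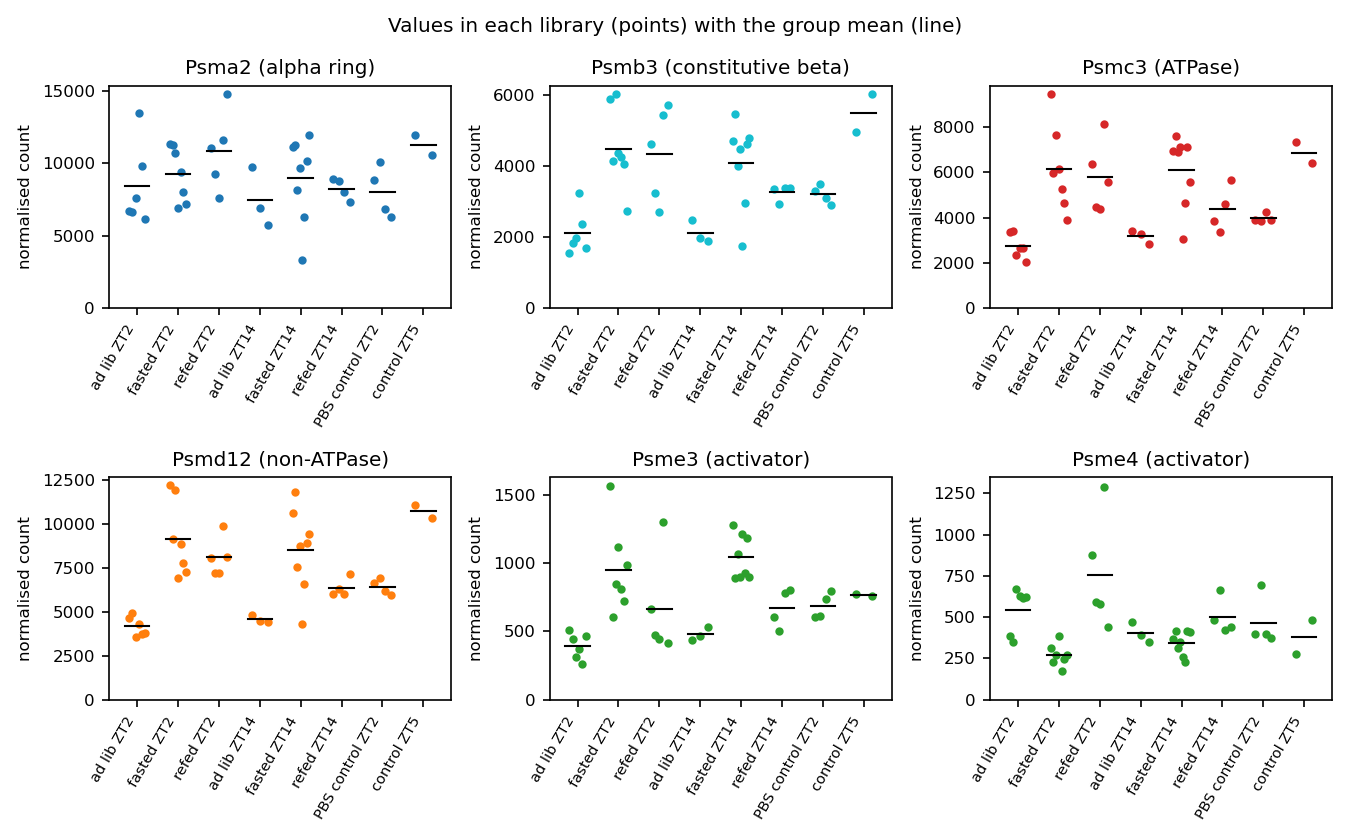
Normalised counts of 6 subunit genes, 1 per panel, in single libraries (points) of 8 groups, with group means as lines. Psmd12, Psmc3 and Psme3 are higher in every fasted sorted library at ZT2 than in every ad libitum one, Psma2 overlaps, and Psme4 is lower after the fast and higher after the refeed.

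At ZT14 fewer subunit genes passed than at ZT2. Of 41 genes tested, 9 were higher and 0 lower, where 9.66% of all genes were higher and 8.81% lower. The median difference was 0.33 against -0.04 over all genes. All 9 were also called at ZT2: Psmb3, Psmc1, Psmc3, Psmc4, Psmd2, Psmd3, Psmd4, Psmd12 and Psme3. Psme3 read 436.9, 468.2 and 534.6 in ad libitum libraries and 894.5 to 1281 (median 996.5) in the 8 fasted ones, without overlap (1.11 ± 0.27, adjusted p = 0.00383). Psmd12 went from 4584 ± 231.2 to 8519 ± 2363 (0.84 ± 0.21, adjusted p = 0.00506), and 7 of 8 fasted libraries lay above all 3 ad libitum libraries.

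The exception was fasted replicate 5, which held the lowest value of its group for 33 of the 43 genes. It read 4314 for Psmd12, under every ad libitum library, and 3293 for Psma2, but 1215 for Psme3 and 2280 for Psmd3, within the range of the other fasted libraries. Without it 18 genes were higher, and without ad libitum replicate 2 or 3 only 3 were. The shares of all genes called in those fits are not given here. The call of Psmd3 (0.98 ± 0.34, adjusted p = 0.0392) was lost under 11 of 21 alternative settings. A test of the difference between the fasting effects at the 2 times called 0 subunit genes and 0.0% of all genes. At an unadjusted p under 0.05 there were 3 of 41 subunit genes and 647 of all 14931 genes. The 10 genes called at ZT2 and not at ZT14 are therefore not shown to differ between times. Astrocyte markers summed to 19.7 to 32.4 in ad libitum and 273 to 15900 in fasted libraries at ZT14, with 4 of 7 higher; their part was not tested.

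Refeeding for 1-hr was compared with the fast itself. Every fasted library held high Cebpb and Alyref and no refed library did, so refeeding and the profile cannot be told apart. At ZT2, Psme4 was the only subunit gene called, and it rose (1 of 41 higher and 0 lower, with 10.8% of all genes higher and 11.1% lower). Refed libraries read 873.9, 590.8, 580.1, 1291 and 438.0, all above the fasted range of 175.5 to 385.6 (1.41 ± 0.24, adjusted p = 3.17e-05). With length and GC correction the difference was 0.63 and that call was lost. Under it 10 subunit genes were called, 9 higher and 1 lower, as with length correction alone. The share of all genes called under these corrections is not given here. Psme3 read 661.3, 474.8, 447.4, 1305 and 418.0 in refed libraries, where replicate 4 stood far above the rest, and its fall of 0.60 missed the threshold (adjusted p = 0.0624). At ZT14, 0 of 41 genes passed, against 11.7% of all genes in either direction, and the quasi-likelihood test of edgeR called 0. At an unadjusted p under 0.05 there were 4, where 3589 of all 14931 genes were. Without fasted replicate 5, 3 genes were lower at ZT14, and without fasted replicate 2 or refed replicate 4, 2 genes were called at ZT2.

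Against ad libitum cells, refed cells at ZT2 held 18 higher genes and 0 lower (9.01% and 8.72% of all genes), with a median difference of 0.55 against -0.14. The count by class was 12 of 14 non-ATPases, 3 of 6 ATPases, 3 of 17 core genes and 0 of 4 activators. Psmd2 read 7304, 6428, 6371, 10540 and 5542 in refed libraries, all above the 2521 to 4498 of ad libitum ones (1.11 ± 0.21, adjusted p = 0.000383). Psmc3 differed by 1.06 ± 0.22, Psmd13 by 1.09 ± 0.24 and Psmb10, the inducible catalytic gene, by 0.64 ± 0.21. This comparison shares its 6 ad libitum libraries with the fasting comparison, and neither of its groups held the Cebpb and Alyref profile. At ZT14, 0 genes passed (0.375% of all genes) and the quasi-likelihood test called 0. There 4 refed and 3 ad libitum libraries were compared. The median difference was 0.28 against -0.01 over all genes, with 36 of 41 subunit genes above 0. An unadjusted p under 0.05 was held by 3 of 41 subunit genes and 960 of all 14931 genes.

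As a share of all normalised counts, the 43 genes made up 1.21% ± 0.132 (SD, n = 6) of the ad libitum, 1.54% ± 0.19 (n = 7) of the fasted and 1.51% ± 0.168 (n = 5) of the refed sorted libraries at ZT2. At ZT14 the shares were 1.22% ± 0.156, 1.49% ± 0.297 and 1.43% ± 0.0552, and fasted replicate 5 was lowest at 0.868%. RiboTag libraries had lower shares, 0.783% ± 0.0917 ad libitum and 1.14% ± 0.118 fasted at ZT2. PBS controls stood at 1.38% ± 0.1 at ZT2, and the ZT5 groups had the highest shares, 1.82% ± 0.0456 in controls (n = 2) and 1.83% ± 0.206 in knockouts (n = 3).

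**Figure D3:**
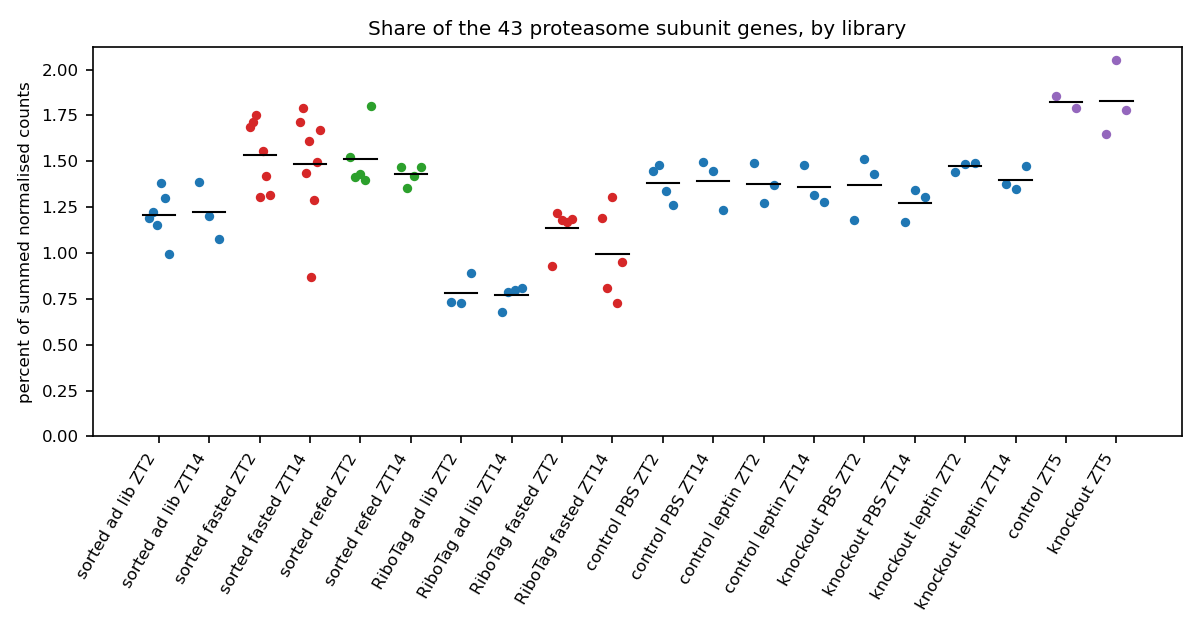
Share of the 43 genes in the summed normalised counts of each library (percent), by group; points are libraries and lines are means. The 5 ZT5 libraries lie between 1.65 and 2.05, and the 7 RiboTag ad libitum libraries between 0.679 and 0.889.

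In RiboTag immunoprecipitates, the fast at ZT2 gave 3 higher genes and 0 lower of 42 tested (4.08% and 3.81% of all genes), all in the core. The median difference was 0.76, against -0.18 over all genes. Psmb7, a catalytic subunit, read 1609, 1201 and 1562 in ad libitum and 2199, 2545, 6546, 3096 and 3758 in fasted libraries, without overlap (1.22 ± 0.33, adjusted p = 0.0306). Psmb3 read 1525, 1546 and 1957 against 2417, 4442, 33030, 4695 and 12330 (2.13 ± 0.62, adjusted p = 0.043). Psma7 read 3433, 3032 and 3429 against 4527, 7840, 40770, 7774 and 18430 (1.81 ± 0.53, adjusted p = 0.0434). The 5 fasted libraries lay above all ad libitum ones for each of these genes, and replicates 3 and 5 were the highest by far. Normalised counts in these 2 libraries summed to 42.5 M and 22.2 M, against 13.5 M to 15.1 M in the other fasted and 14.3 M to 14.9 M in the ad libitum libraries, so a value in them is part of a larger total. As a share of each library's total, Psmb3 was at 0.0777% and 0.0556% in them, 0.018% to 0.0328% in the other fasted and 0.0103% to 0.0137% in the ad libitum libraries. Psmb7 was at 0.0154% and 0.0169% in them, no higher than the 0.0163% to 0.0217% of the other fasted libraries, and at 0.00828% to 0.0109% in ad libitum ones.

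None of the 20 genes of the 19S classes passed (median 0.60), and Psme3, whose fasted values of 1374 to 1911 overlapped the ad libitum values of 1491 to 1651, differed by 0.03. The number of genes called was 12 without fasted replicate 1, 1 without replicate 3 and 0 without replicate 5 or any of the 3 ad libitum libraries. At ZT14, 0 of 42 genes passed (5.29% of all genes) and the quasi-likelihood test called 0. The median difference at ZT14 was 0.365 against -0.158 over all genes. An unadjusted p under 0.05 was held by 3 of 42 subunit genes and 2966 of all 15444 genes. Among the RiboTag differences at ZT2, short transcripts were highest: across 42 genes Pearson's r with log2 transcript length was -0.63 and across 15244 genes -0.48, where in sorted cells the values were -0.01 (41 genes) and -0.27. With percent GC of the transcript, r in sorted cells at ZT2 was 0.36 across the 41 genes and 0.17 across all genes. In RiboTag these values were 0.22 and 0.12. Genes are not independent replicates, and these coefficients describe the libraries compared.

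**Figure D4:**
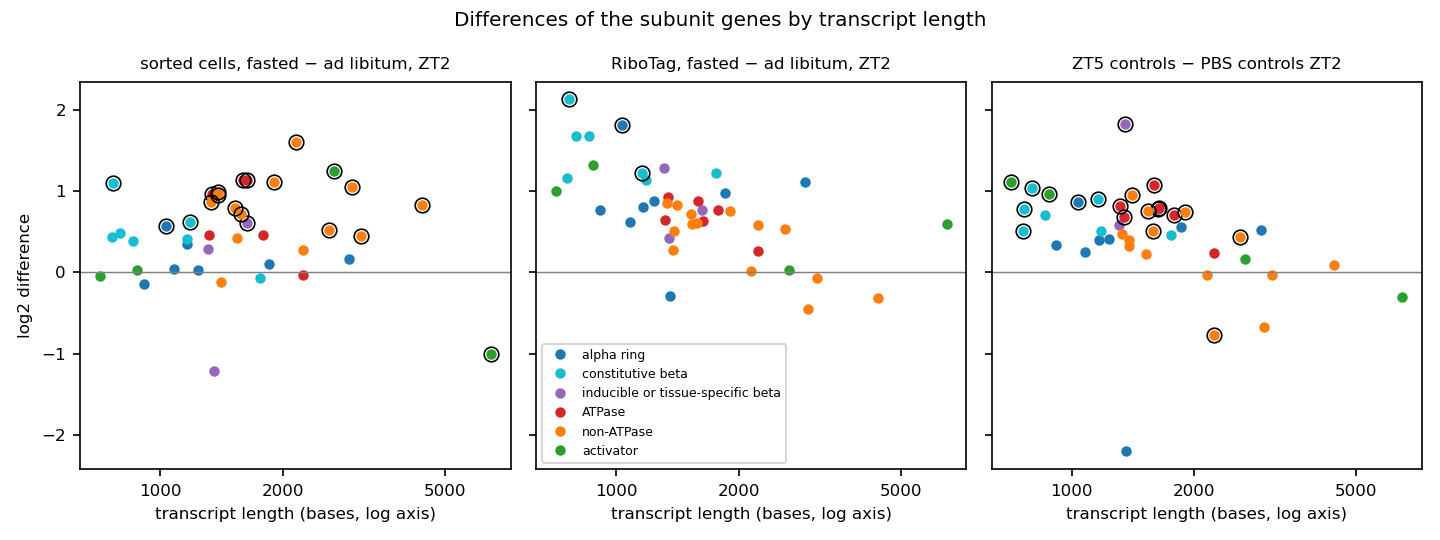
Log2 difference of each subunit gene against its transcript length in bases (log axis) in 3 comparisons, with circles around genes at an adjusted p under 0.05 and colours for classes. Differences fall with length in the RiboTag panel (r = -0.63) and in the ZT5 panel (r = -0.40), not in the sorted cells (r = -0.01). Over all genes r was -0.48 in RiboTag, -0.37 at ZT5 and -0.27 in sorted cells.

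The 2 preparations were set side by side in ad libitum mice. Preparation, genotype, the cells marked (by AGRP-Cre or NPY::hrGFP) and series cannot be told apart in this comparison. At ZT2, RiboTag RNA had 6 subunit genes higher and 15 lower than sorted cells, of 43 tested (27.4% and 14.2% of all genes); at ZT14 it had 4 higher and 12 lower (25.1% and 11.3%). Psme3 read 1651, 1491 and 1529 in RiboTag at ZT2, above all 6 sorted libraries (2.02 ± 0.26, adjusted p = 4.86e-08), and was higher at ZT14 too (1.89 ± 0.28). Psmd3 was higher by 2.16 and 1.72 and Psmd13 by 1.44 and 1.11 at the 2 times. Psmd2 (0.91) and Psmd5 (0.81) passed at ZT2.

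Lower in RiboTag RNA were 5 alpha genes at each time, Psma1, Psma2, Psma3, Psma5 and Psma6, by 0.94 to 1.26 in log2 size, and the ATPase Psmc6 (-1.29 and -1.39). Psme4 read 71.0, 156.1 and 68.63 in RiboTag at ZT2, under all sorted libraries (-2.52 ± 0.37, adjusted p = 9.21e-07). Psma8 was called higher at both times but entered the test only through its RiboTag values, so its direction was fixed by the filter on low values, and without it 5 and 3 genes were higher. It was at 20.74, 39.02 and 0 in RiboTag ZT2 and 12.88 to 28.46 at ZT14, where it was at 0 in 4 of 6 sorted libraries at ZT2 and in all 3 at ZT14. Summed astrocyte markers were at 11000 to 85600 in RiboTag ad libitum libraries at ZT2 and 16.6 to 431 in sorted ones; their part was not tested. Without RiboTag ad libitum ZT2 replicate 1 or 2, 12 and 13 genes were called at ZT2. At ZT14, where 16 were called, 8 were called without sorted replicate 1 and 10 without sorted replicate 2 or RiboTag replicate 1, but 25 by the quasi-likelihood test or with TMM rescaling, 32 with library weights and 33 with the compared groups alone.

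ZT5 libraries of the control genotype were set against PBS controls at ZT2, a comparison in which time, injection, series and the Cebpb and Alyref profile cannot be told apart. Of 42 genes tested, 19 were higher and 1 lower (13.0% and 21.5% of all genes), with a median of 0.51 against -0.19. Here the activators Psme1 and Psme2 rose: Psme1 read 6707 and 5669 at ZT5 and 2968, 3368, 2735 and 2454 in PBS controls (1.11 ± 0.23, adjusted p = 0.000484). Psme2 read 6519 and 5483 against 2723 to 3600 (0.96 ± 0.22). Both ZT5 libraries lay above all PBS controls for each.

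The inducible Psmb9 read 118.2 and 161.9 against 29.74, 29.74, 50.47 and 47.8 (1.83 ± 0.58, adjusted p = 0.0164), and Psmb8 rose by 0.78. Of the constitutive catalytic genes, Psmb6 read 18690 and 19420 against 7863 to 11160 (1.04 ± 0.26), Psmb7 rose by 0.91 and Psmb5 by 0.51. The ATPases Psmc1 to Psmc5 rose by 0.68 to 1.08. Psmd11, a lid subunit, fell by 0.77. Psme3 read 772.7 and 759.0 against 605.1 to 792.8 and did not pass (0.17).

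Of the 19 genes higher after fasting at ZT2 and the 19 higher at ZT5, 9 were in both lists (47.4% of each): Psma7, Psmb3, Psmb8, Psmc1, Psmc3, Psmc4, Psmd7, Psmd9 and Psmd12. Of all 41 subunit genes tested in both comparisons 46.3% were higher at ZT5, close to the 47.4% within the fasting list. Over all genes tested in both, 25.7% of those higher after fasting were higher at ZT5, where 13.2% of all were. Psme3, Psmd2 and Psmd3 were among the 10 of the fasting list alone, and Psmb6, Psmb9, Psme1 and Psme2 among the 10 of the ZT5 list alone. With length correction the ZT5 comparison called 5 genes, without ZT5 control replicate 1, whose Hsd11b2 goes against its label, 10, and without replicate 2, 11. Summed astrocyte markers were at 54.4 to 62.7 at ZT5 and 217 to 686 in PBS controls.

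A further comparison, chosen after the values were seen, set PBS controls against ad libitum sorted cells. The labels of the PBS controls say nothing on feeding, and the groups differ in genotype, injection and series. At ZT2, 12 of 42 genes were higher and 0 lower (5.09% and 2.66% of all genes), with a median of 0.25 against -0.06: 9 of 14 non-ATPases, Psmc4, Psmb8 and Psme3. Psmd2 read 5586, 5593, 7903 and 8035 in PBS controls, all above ad libitum libraries (1.03 ± 0.25, adjusted p = 0.00594), and Psmd3 read 1830, 1460, 2928 and 2848 (1.29 ± 0.37, adjusted p = 0.0208). Psme3 read 605.1, 612.2, 734.2 and 792.8 (0.83 ± 0.27, adjusted p = 0.0473), above all 6 ad libitum libraries. Leaving out any library of the PBS controls gave 3 to 7 genes, and leaving out ad libitum replicate 4 or 6 gave 6 and 7. At ZT14, 0 genes passed (0.257% of all genes) and the quasi-likelihood test called 0. The median difference at ZT14 was 0.222 against -0.027 over all genes. An unadjusted p under 0.05 was held by 1 of 42 subunit genes and 802 of all 15175 genes. These libraries share the ad libitum group with the fasting and refeeding comparisons.

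**Figure D5:**
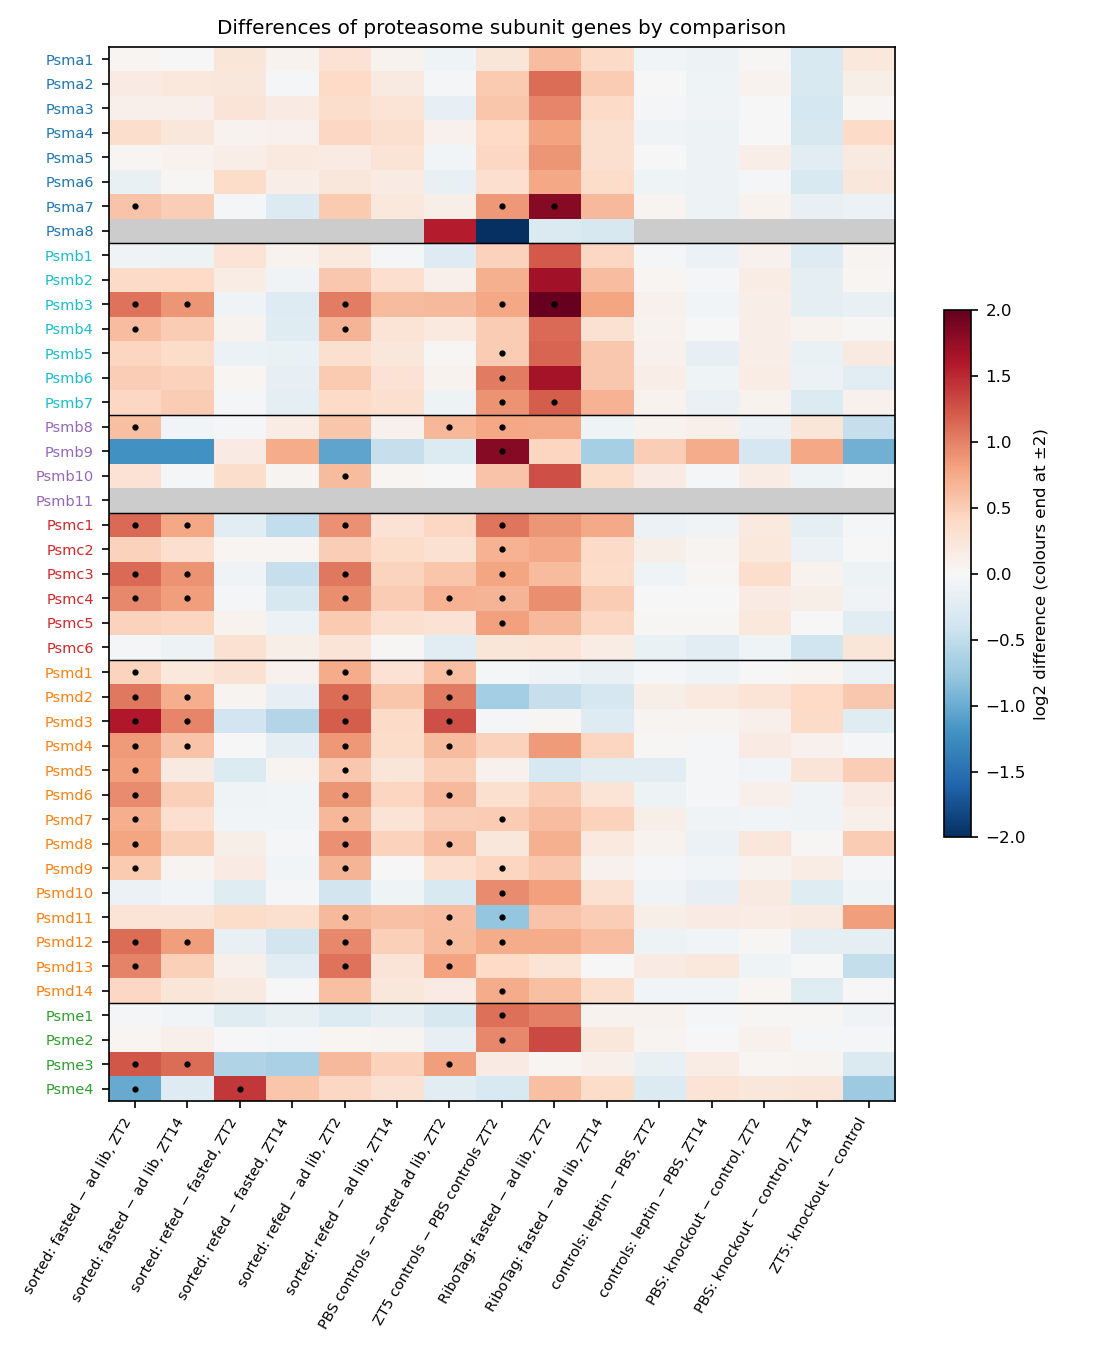
Log2 difference of the 43 genes (rows, by class) in 15 comparisons (columns); colours end at -2 and 2, dots mark an adjusted p under 0.05 and grey marks genes not tested. Dots gather in the non-ATPase rows of the fasting and refed columns at ZT2 and are absent from the leptin and knockout columns.

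Time of day called no subunit gene in the 7 groups compared; the leptin-treated groups were not compared between times. ZT14 against ZT2 gave 0 calls in ad libitum (0.0% of all genes), fasted (0.281%) and refed (0.0268%) sorted cells, in ad libitum (0.0%) and fasted (0.0%) RiboTag, and in PBS controls (0.00717%) and PBS knockouts (0.0%). At an unadjusted p under 0.05 the numbers were 1, 0 and 2 in sorted cells, 0 and 8 in RiboTag, and 0 and 0 with PBS. Over all genes they were 413, 1474 and 1138 of 14931, 92 and 1381 of 15444, and 691 and 692 of 13942. The quasi-likelihood test of edgeR on the recovered reads called 0 subunit genes in each comparison. The median subunit difference in ad libitum, fasted and refed sorted cells was 0.016, -0.126 and -0.304, against -0.052, -0.027 and 0.033 over all genes. In ad libitum and fasted RiboTag it was -0.096 and -0.52, against -0.011 and 0.071. In PBS controls and PBS knockouts it was -0.002 and -0.201, against -0.024 and 0.016. These shifts of the whole set were not tested. Psmd12 in ad libitum sorted cells was at 4845, 4502 and 4405 at ZT14 and 3588 to 4919 at ZT2 (0.14 ± 0.22), and Psmb6 at 10170, 7609 and 6612 against 6513 to 12230 (-0.14 ± 0.29).

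Leptin, the adipose hormone that signals energy stores, called no subunit gene either. The calls were 0 in controls at ZT2 (0.0215% of all genes) and ZT14 (0.0%) and 0 in knockouts at ZT2 (0.423%) and ZT14 (0.0861%). The quasi-likelihood test gave 0 in each, and so did an unadjusted p under 0.05. Of all 13942 genes, 298 and 384 in controls and 1207 and 732 in knockouts had such a p at ZT2 and ZT14. Psmd12 was at 5294, 5931 and 6921 with leptin and 5975 to 6915 with PBS in controls at ZT2 (-0.10 ± 0.15). Standard errors of the 41 genes in that comparison ran from 0.14 to 0.53 on the log2 scale, and the differences themselves from -0.27 to 0.50. A p above the threshold does not show that leptin left these genes as they were.

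BMAL1 knockout gave 0 calls with PBS at ZT2 (0.0215%) and ZT14 (0.00717%), with leptin at ZT2 (0.00717%) and ZT14 (0.0215%) and at ZT5 (0.0%), again 0 by the quasi-likelihood test. At an unadjusted p under 0.05 there were 4 of 41 subunit genes at ZT5, where 1157 of all 12940 genes were. In the other 4 comparisons there were 0, where 272 to 1059 of all 13942 genes were. Psmd12 was at 6007, 6066 and 7529 in PBS knockouts at ZT2 (0.02 ± 0.15 against controls). The 4 genes with an E-box in the promoter window, Psma4, Psmb10, Psmd9 and Psme3, were not called. Since no subunit gene was called, this says nothing on the E-box genes in particular. With library weights the comparison with leptin at ZT14 called 2 subunit genes. Arntl overlapped between the genotypes except with leptin at ZT2, so for the loss of BMAL1 the other 4 comparisons rest on the labels. Hsd11b2 followed the Cre label in all PBS and leptin libraries (2092 or more in knockouts, 19.74 or less in controls). At ZT5 Hsd11b2 went against the label in control replicate 1 and knockout replicate 3.

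Genes that work with the proteasome were followed in lists of their own. In fasted against ad libitum sorted cells at ZT2, 7 of 16 associated regulators were higher and 1 lower, where 18.3% of all genes were higher and 19.2% lower. Akirin2, which carries proteasomes into the nucleus, went from 237.9 ± 151.7 to 1100 ± 116.2 (2.40 ± 0.26, adjusted p = 1.15e-08). The shuttle Ubqln1 went from 949.1 to 3385 (1.77), the ubiquitin receptor Adrm1 from 812.2 to 2320 (1.51) and Zfand5, a proteasome activator, from 1094 to 2963 (1.47). AI314180, the older symbol of Ecpas, a scaffold protein of the proteasome, fell by 1.94. After the refeed Akirin2 fell by 2.89 against the fast, Zfand5 by 2.00 and Ubqln1 by 1.78, and AI314180 rose by 1.62. Under the main settings, without length correction, no subunit gene other than Psme4 passed there. In both comparisons the food state and the Cebpb and Alyref profile cannot be told apart.

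Of the 5 assembly chaperones in this list (Psmg1 to Psmg4 and Pomp), 0 were higher and Psmg2 fell by 0.84. Of the assembly chaperones counted above with the subunit genes, Psmd5 and Psmd9 were called higher and Psmd10 was not called. Among the 5 genes of transcriptional control, Nfe2l2 (1.25), the glycosidase Ngly1 that activates NRF1 (0.79) and the segregase Vcp (0.54) rose, and Nfe2l1 itself was at 659.6 ± 174.8 and 414.1 ± 230.3 and did not pass (adjusted p = 0.0981). Of the genes for ubiquitin and its activation, the ubiquitin fusion gene Rps27a (-1.60) and the activating enzyme Uba6 (-1.12) fell, and the ubiquitin gene Ubb was at -0.01. In antigen processing, B2m (0.86) and Tap2 (1.07) rose and Nlrc5 (-3.26) fell.

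Over the 33 sorted ad libitum, fasted and refed libraries, the core genes varied together. The median Pearson's r between pairs was 0.92 within the alpha ring and 0.88 within constitutive beta, 0.82 within the ATPases and 0.62 within the non-ATPases, and 0.49 between alpha and non-ATPase genes. These values are descriptions: the libraries share food states and depth, and no p is given. Values for pairs of other genes are not given here, so the correlations are not shown to be particular to these genes. Psmc5 followed the mean of the other members most closely (0.96), then Psma7 and Psmd14 (0.95 each). Psmd3 (0.30), Psme3 (0.28) and Psme4 (0.01) followed it least, and the 6 pairs of activators had a median r of -0.16, from -0.35 up to 0.91 for Psme1 with Psme2. The pair of inducible genes compared, Psmb8 and Psmb10, had an r of 0.33. The genes outside the set closest to the members' mean, of 10985 compared, were Ppa1 (0.97), Pqbp1, Zwint, Nme1 and Morf4l2 (0.96 each). Exons of 11 subunit genes overlap another gene, most of all Psmb7 with Nek6 (405 bases), Psmd1 with Gm21972 (301) and Psmb9 with Tap1 (212), and whether strand was used in counting is not given in the sources used here.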

How the data were processed

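The authors deposited 1 table of normalised counts for 23337 genes in 80 libraries, a signal without a log, made per the submitters' processing notes with STAR 2.5.1, featureCounts, DESeq or DESeq2 in R 3.5.1 and mm10. In 79 libraries at least 99.99% of values were whole reads divided by a size factor (tolerance 0.1). Sorted ad libitum ZT2 replicate 4 gave 13.53% and stayed out of the count test only.

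Groups came from the labels. Each set was fitted with limma 3.58.1 (R 4.3.3) on log2(value + 1) with an intensity trend, keeping genes that reached 10 in at least the smallest group's number of libraries, with Benjamini-Hochberg adjustment over all genes tested (threshold 0.05). Fold changes on this scale understate those of low genes. edgeR 4.0.16 (quasi-likelihood) on recovered reads, other pseudocounts, filters, scalings, length correction, library weights, a replicate block and left-out libraries were alternatives. Correction for length and GC, fits without libraries that stood apart and PBS controls against ad libitum cells were added after seeing the data. The procedure was tested on simulated data. Lengths and positions are of mm10 gene models.

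Values by library were given, per main comparison, for up to 3 members of each class (the called ones with the smallest p and the largest difference, and the one with the largest mean), for the catalytic and inducible beta genes and for the activators, and up to 4 called genes of each partner list; other members were picked after their values were seen. Some genes of the partner lists are not reported here. Members and lists were chosen with earlier results of these data known. Same-numbered libraries deviated together (all pairs over 0.1) in 2 of 21 comparisons with 3 or more pairs, leptin at ZT14 in controls and in knockouts, and the block changed no call there.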

Additional observations from a re-analysis of the deposited data

Results flagged for a closer look

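In groups of 4 to 10 libraries, the highest or lowest library was compared with the others by Dixon's gap for the 11 members followed in most detail and for the summed share. Of 108 groups of values, 6 held a library far from the rest; chance gives about 1 in 20. The members' share was 0.679% in RiboTag ad libitum ZT14 replicate 1 and 0.927% in RiboTag fasted ZT2 replicate 1, each the lowest of its group. Leaving out the latter moved the RiboTag fasting calls at ZT2 from 3 to 12. Psmb3 was lowest in sorted refed ZT14 replicate 2, at 2930 normalised counts. Psmc3 was highest in control PBS ZT2 replicate 3, at 4265, and Psme4 in control PBS ZT2 replicate 2, at 693.2. Psme3 was highest in sorted refed ZT2 replicate 4, at 1305, the library that also held the group's highest Psme4 (1291) and Psmd3 (3869). No cause was tested for any of them.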

How the results depend on the processing

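Counts under the alternatives are given without the share of all genes called in the same fit. A shift in them is therefore not shown to be particular to subunit genes. The count of subunit genes called after fasting in sorted cells at ZT2 (20) stayed between 17 and 22 under all 23 alternatives. Of 30 comparisons, 18 had 0 calls under every alternative run. At ZT14 the 9 calls became 26 with library weights and 5 with the compared groups alone, and 3 to 18 when each library was left out. Refed against fasted cells at ZT2 (1 call) gave 10 with length correction, 10 with length and GC correction, 2 with library weights and 1 to 2 with a library left out. At ZT14 (0 calls) it gave 8 with weights, 1 with the replicate block, 1 with the compared groups alone and 0 to 3 with a library left out. Refed against ad libitum cells gave 29 and 28 calls with the 2 corrections at ZT2 (18) and 2 with weights at ZT14 (0), and 16 to 19 with a library left out at ZT2. RiboTag fasting at ZT2 (3) gave 1 without the filter, 6 by the quasi-likelihood test, 11 with weights, 5 with the replicate block, 0 with the compared groups alone and 0 to 12 with a library left out. Knockout with leptin at ZT14 (0) gave 2 with weights.

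ZT5 against PBS controls (20) gave 5 with length correction, 8 with length and GC correction, 9 with weights, 9 without libraries that stood apart and 10 to 21 with a library left out. RiboTag against sorted cells gave 12 to 24 at ZT2 (21) and 8 to 16 at ZT14 (16) with a library left out, and at ZT14 25 by the quasi-likelihood test, 25 with TMM rescaling, 32 with weights and 33 with the compared groups alone. PBS controls against ad libitum cells at ZT2 (12) gave 7 without libraries that stood apart and 3 to 13 with a library left out. The cause of these shifts was not tested. Of 3248 alternative values of single genes, 3122 kept their direction and side of the threshold, 50 lost a call, 41 gained one and 34 moved; the 1 that reversed was Psme4 after fasting at ZT2, at 0.04 with length and GC correction. With the replicate block the fasting counts were 20 at ZT2 and 10 at ZT14 in sorted cells.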
